A study of Mus musculus with 16 samples.

Results

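Car1, Car2 and Car4 are the carbonic anhydrases of colonocytes described here: 3 genes, taken by name, of the 16039 genes in the deposited single-cell table of mouse transverse colon. Carbonic anhydrases interconvert carbon dioxide and bicarbonate. In the colon the enzymes supply the protons and bicarbonate that absorptive cells exchange for sodium and chloride, through exchangers such as Slc9a3 and Slc26a3. Car1 and Car2 encode cytosolic enzymes, and Car4 encodes an enzyme held on the outer face of the apical membrane by a lipid anchor.

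The cells came from 16 female C57Bl/6J mice, 7 weeks old at the start of acclimatization, each giving 1 droplet library. The SZN-1326-p mice drank 4% dextran sulfate sodium (DSS), which injures the colonic epithelium, received 10 mg/kg SZN-1326-p on day 4 and gave tissue 24 h later (day 5, 3 mice) or 48 h later (day 6, 3 mice). SZN-1326-p is a Frizzled-specific activator of Wnt signalling. The anti-GFP mice drank the same DSS and received anti-GFP, the control antibody, at 10 mg/kg on day 4, with 3 mice at each time. The uninjured mice drank no DSS, with 2 mice at each time, and no antibody dose is given for them. A change after DSS below compares anti-GFP with uninjured mice, so DSS and the control antibody cannot be told apart. All groups are of 1 sex and strain, and DSS injury here is a chemical model of colitis with dosing during injury.

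The authors' annotation put 10373 of 22717 cells in 17 epithelial cell types, 7509 in stromal types and 4835 in immune types. Libraries held 936 to 2033 cells with a median of 6459 to 11153.5 unique molecular identifiers (UMIs) per cell, and 64 of 22652 barcode sequences occurred in more than 1 library. 2 SZN-1326-p libraries stood apart by their share of epithelial cells, 58.4% (24 h, replicate 2) and 54.9% (48 h, replicate 3), against 20.5% to 43.7% in the other DSS libraries and 56.8% to 73.3% in uninjured libraries. Over all cells they also had a higher median mitochondrial share of UMIs (18.9% and 24.1%, against 5.06% to 11.6% in the other DSS libraries), but in epithelial cells their 33.6% and 36.0% lay within the 26.1% to 36.7% of the other DSS libraries. 4 of the 24 h libraries (SZN-1326-p replicate 1, anti-GFP replicates 1 and 2, uninjured replicate 1) also stood apart by a longer-over-shorter transcript balance, measured in fibroblasts, of 0.32 to 0.52 on the log2 scale, against at most 0.09 in the other 12. A level below is the mean over cells of UMIs divided by the authors' size factor, in normalized UMIs per cell, for 1 mouse. A gene was called where limma's moderated test, fitted over all tested genes, gave a Benjamini-Hochberg adjusted p under 0.05. No label says how the mice were housed or processed together, so each p measures the spread between these mice.

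All 3 genes encode enzymes whose zinc ion is held by histidines, the first pair of which lies in a His-x-His stretch. The coding sequence round that pair is shown for each gene because it is the shared catalytic core of enzymes whose expression differed. The 2 histidine codons are in capitals, and the rest of the 45-base window in lower case, 5′ to 3′ on the coding strand (GENCODE M21, mm10).
Car1: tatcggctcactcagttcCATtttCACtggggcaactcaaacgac
Car2: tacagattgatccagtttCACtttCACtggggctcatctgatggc
Car4: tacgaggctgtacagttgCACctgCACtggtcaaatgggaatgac
Car1 and Car2 shared 29 of the 45 bases, Car1 and Car4 24, and Car2 and Car4 23. When the whole coding sequences were aligned, identity was 63.4% of 775 aligned bases between Car1 and Car2. It was 52.0% of 761 between Car1 and Car4 and 57.2% of 745 between Car2 and Car4, with unaligned bases left out. Each window lay within 1 exon: chr3:14776263-14776307 on the minus strand for Car1 (codons 95 and 97 of 261), chr3:14895051-14895095 on the plus strand for Car2 (codons 94 and 96 of 260) and chr11:84964149-84964193 on the plus strand for Car4 (codons 114 and 116 of 305). Car1 (ENSMUSG00000027556.15, chr3:14766216-14808368) and Car2 (ENSMUSG00000027562.12, chr3:14886273-14900770) lie close together, with the related Car3 between them, and Car4 (ENSMUSG00000000805.18) lies at chr11:84957786-84966044. The 300-base RefSeq promoter of Car4 (GRCm38.p6) was searched on both strands for a TCF/LEF core (CTTTGA), a CDX core (TTTATNG) and an HNF4 core (CAAAGT). It held 1 CDX core, on the minus strand with its first base 42 after the start. That start is the promoter set's own, not the gene start given above. Those cores occur in 16%, 10.9% and 14.4% of 32851 mouse promoters of the same length. No promoter of Car1 or Car2 was in the set.

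In the uninjured epithelium each gene had its highest mean level in a different type, although Car1 and Car2 were both high in ImmEntero1. Cell type names are the authors', and since their types were clustered on these cells, levels between types are given as a description. The Enterocyte and ImmEntero2 types, named by the authors for mature and immature absorptive cells, carried the most RNA of 8 colonocyte markers (Aqp8, Slc26a3, Krt20, Fabp2, Guca2a, Alpi, Slc13a2, Ceacam1; 8 of 8 found), at a summed level of 341 in Enterocyte and 410 in ImmEntero2, against 11.2 in StemCell, over the cells of all mice. No colonocyte marker was at 0 in either absorptive type.

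Car2, the cytosolic enzyme of high turnover, was the one already high in the crypt base. In uninjured mice it averaged 13.4 ± 2.09 in ImmEntero1 (SD, n = 4 mice), 13.0 ± 1.87 in EnteroPrecur (n = 3), 11.5 ± 2.83 in AltEnteroPC (n = 3) and 8.71 ± 1.45 in StemCell (n = 4). ImmEntero2 (7.22 ± 0.62, n = 4) and TA2 (7.04 ± 0.54, n = 4) followed, each type overlapping its neighbour in this order. Enterocyte lay lower, at 2.86 ± 0.55 (n = 4), below every mouse of ImmEntero2. Its individual levels in StemCell were 9.54, 9.93, 6.68 and 8.68.

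Car1, the other cytosolic enzyme, was low in the crypt base and high in immature absorptive cells. It averaged 152 ± 9.32 in AltEnterocyte2 (n = 2, both at 48 h), 112 ± 33.1 in ImmEntero2 (n = 4) and 62.3 ± 13.0 in ImmEntero1 (n = 4). ImmEntero2 and ImmEntero1 overlapped between mice. Enterocyte averaged 22.1 ± 10.3, and AltEnteroPC 15.3 ± 2.83, which overlapped it. StemCell (1.89 ± 0.98), TA2 (1.76 ± 0.65) and BasalGoblet (1.10 ± 0.24) were lowest among the types with 4 mice. In ImmEntero2 the 4 uninjured mice had 63.5, 117, 128 and 138, and in Enterocyte 10.5, 16.8, 28.4 and 32.7, with the 24 h replicate 1 mouse lowest in each.

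Car4, the membrane-anchored enzyme, was nearly restricted in uninjured epithelium to Enterocyte, AltEnterocyte3, ImmEntero2 and AltEnterocyte2. It stood at 31.7, 28.5, 32.7 and 29.0 in Enterocyte of the 4 uninjured mice, the highest type, with a mean of 30.5 ± 2.03. AltEnterocyte3 averaged 16.8 ± 10.8 (n = 2), ImmEntero2 8.21 ± 0.84 (n = 4) and AltEnterocyte2 6.84 ± 2.09 (n = 2). The mean of every other uninjured epithelial type was at most 0.23, with ImmEntero1 at 0.19 ± 0.09 although its Car1 and Car2 were high. Between ImmEntero1 and Enterocyte, Car4 and Car2 thus stood in opposite order.

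**Figure D1:**
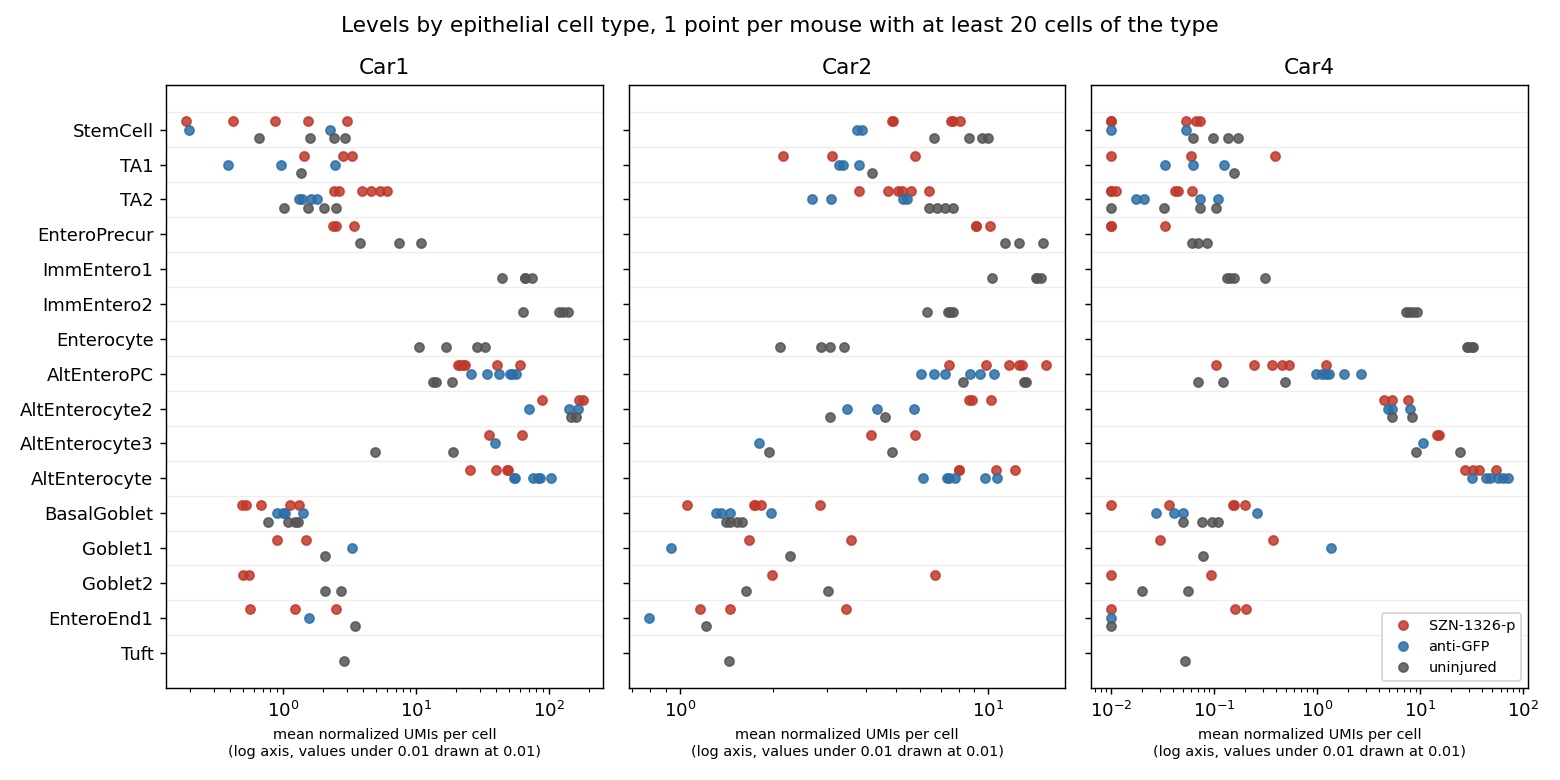
Level of each gene (x axis, log scale, normalized UMIs per cell) in 16 epithelial cell types (y axis), 1 point per mouse with at least 20 cells of the type, with SZN-1326-p above anti-GFP and uninjured within each row. Car4 of uninjured mice is near 30 in Enterocyte and below 1 in the crypt types, while Car2 of uninjured StemCell cells lies between 6.68 and 9.93.

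After each cell was thinned to 4000 UMIs (shallower cells left out), 67.1% and 78.3% of Enterocyte cells had a Car1 UMI in uninjured mice at 24 h and 48 h, 45.3% and 37.7% had a Car2 UMI, and 95.0% and 94.2% had a Car4 UMI (unthinned, 97.2% and 97.1%). In uninjured StemCell cells the thinned shares were 89.5% and 84.9% for Car2 but 4.00% and 2.66% for Car4. Fibroblasts, set beside them for the level of free RNA, had thinned shares over the 6 groups of 8.56% to 29.6% for Car1, 5.97% to 17.6% for Car2 and 0.56% to 2.89% for Car4, at median depths of 6655 to 13279 UMIs. Their Car2 was uneven, with a mean over cells of 1.10 in CryptFB2 (12226 UMIs) and 0.21 in InjuryCryptFB1 (10833 UMIs), so the Car2 shares are not read as plain background. The Car1 shares of uninjured StemCell cells (30.9% and 27.9%, median depth 7942 and 8221 UMIs) and of BasalGoblet (23.7% and 21.9%, median depth 8153 and 9150 UMIs) lay close to those fibroblast values. By level, however, uninjured StemCell (mean 1.89) and BasalGoblet (1.10) lay above the highest fibroblast type, BaseCryptFB1, with a mean over cells of 0.82. The Car4 shares of StemCell likewise lay near the fibroblast values. The part of free RNA in these low shares was not tested.

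Car4 had a second source outside the epithelium. Over 29 non-epithelial types its level was 1.67 in VascEndo, the authors' vascular endothelium (731 cells), and 0.55 in Pericytes (73 cells), against 0 to 0.35 in the other 27. By mouse, VascEndo had 0.24 to 3.71, and after thinning 32.5% of VascEndo cells in SZN-1326-p mice at 24 h, 33.6% at 48 h, 34.7% in anti-GFP mice at 24 h, 35.7% at 48 h and 41.9% in 1 uninjured mouse at 48 h had a Car4 UMI. Car4 is known as a capillary endothelial enzyme in several organs. For Car1 the 29 types ranged from 0.26 to 3.00 with a median of 0.57, and for Car2 from 0.16 to 2.11 with a median of 0.43. Summed markers of endothelium in the epithelial cells (Pecam1, Cdh5, Plvap; 3 of 3 found) reached at most 0.072 in any library.

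Across 16 epithelial types and 5885 genes, the level profiles most like that of Car1 (Pearson correlation of log2 levels) belonged to Slc51b, a basolateral bile acid transporter subunit (r = 0.96), and Cyp2c55, a cytochrome P450 (r = 0.96), then Papss2, Tnni1 and Cyp4f14. Car2 was followed most closely by Ociad2 (r = 0.93), Cldn8, a claudin of tight junctions (r = 0.93), Hadh, Bpnt1 and Hao2. Ifit1bl1 (r = 0.98), Ptk2b (r = 0.98), Sprr2a2, Saa2 and Lhfpl2 came nearest to Car4. Among the members r was 0.78 for Car1 with Car4, 0.59 for Car1 with Car2 and 0.20 for Car2 with Car4, over 16 types that share the same libraries.

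DSS injury left the mean epithelial levels of Car1 and Car4 without a called change, while the cells that carried them were of different types. Epithelial Car1 was 41.9, 24.6 and 42.7 in anti-GFP mice at 24 h and 41.5, 29.7 and 14.1 at 48 h, against 16.7 and 40.6 in uninjured mice at 24 h and 40.5 and 41.0 at 48 h. The groups overlapped. The log2 change was -0.11 ± 0.35 (SE; 95% confidence interval -0.84 to 0.63; limma adjusted p = 0.847). Epithelial Car4 was 4.02, 9.37 and 5.01 in anti-GFP mice at 24 h and 17.2, 5.39 and 7.39 at 48 h, against 8.93 and 8.79 in uninjured mice at 24 h and 8.62 and 5.69 at 48 h. It also overlapped, with a log2 change of -0.15 ± 0.29 (interval -0.76 to 0.46; limma adjusted p = 0.742). Of all 10795 genes tested, 23.3% were called in this comparison, and 0 of the 3 members.

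Car2 lay lower after DSS but just outside the threshold. It was 3.31, 4.50 and 4.03 in anti-GFP mice at 24 h and 6.75, 4.46 and 5.32 at 48 h, against 5.16 and 7.56 in uninjured mice at 24 h and 6.45 and 6.76 at 48 h. 2 anti-GFP mice of 48 h lay above the lowest uninjured mouse. The log2 change was -0.48 ± 0.17 (interval -0.84 to -0.12; limma adjusted p = 0.0510). It passed in 4 of the 10 fits that left out 1 mouse, those without anti-GFP replicate 2 or 3 of 24 h, anti-GFP replicate 1 of 48 h or uninjured replicate 1 of 24 h (limma adjusted p over the 10 fits 0.0245 to 0.247). A fit with a term for the 4 libraries that stand apart in transcript balance gave -0.45 with an adjusted p of 0.0127.

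**Figure D2:**
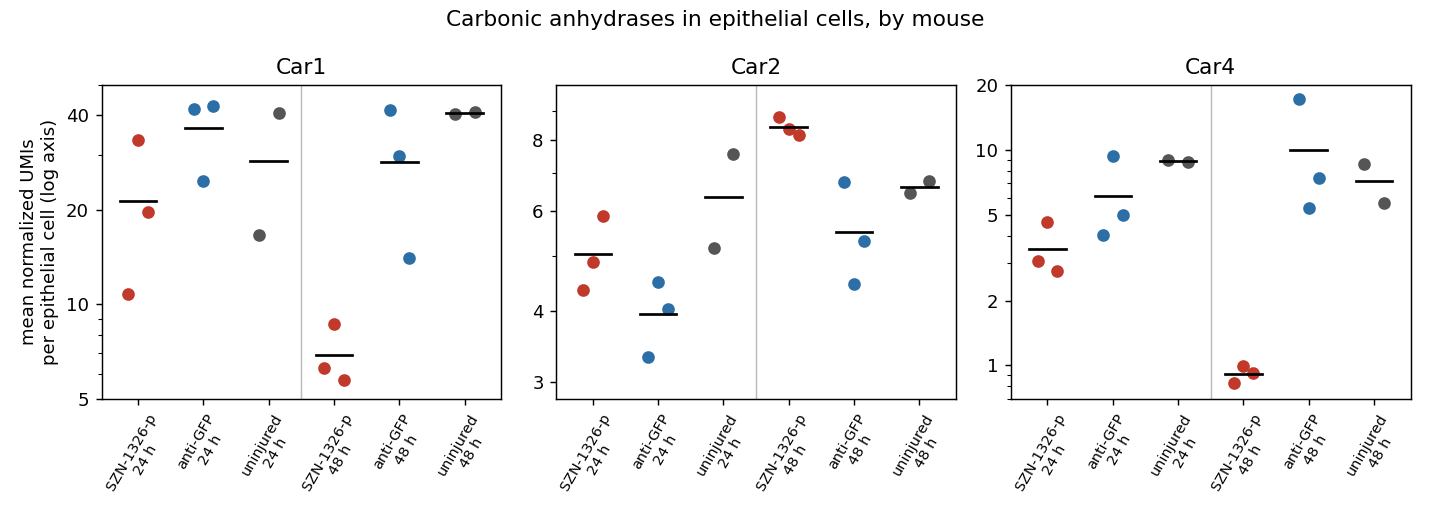
Level of each gene over all epithelial cells (y axis, log scale, normalized UMIs per cell) by group, 1 point per mouse and a bar at the group mean. Car4 of the SZN-1326-p mice at 48 h lies between 0.83 and 0.99 and that of the anti-GFP mice at 48 h between 5.39 and 17.2; Car2 lies between 8.15 and 8.79 in those SZN-1326-p mice and between 4.46 and 6.75 in those anti-GFP mice.

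The types that held the UMIs were different. In anti-GFP mice the AltEnterocyte type supplied 63.3% of epithelial Car4 UMIs at 24 h and 88.8% at 48 h (mean over mice), against 0% at both times in uninjured mice, where it had 0 cells. Enterocyte supplied 0.50% (3 cells) and 0% (0 cells) in anti-GFP mice, against 75.4% and 72.9% in uninjured mice. Car1 UMIs came in anti-GFP mice mainly from AltEnterocyte2 (46.9% at 24 h, 18.6% at 48 h), AltEnterocyte (17.5%, 47.0%) and AltEnteroPC (26.8%, 29.0%), and in uninjured mice mainly from ImmEntero2 (65.7%, 47.8%). Per cell, AltEnterocyte of anti-GFP mice held Car4 at 31.6, 47.6 and 56.1 at 24 h and 71.0, 43.1 and 63.8 at 48 h, a range that overlaps the uninjured Enterocyte levels and reaches above them. Because the authors' types separate injured from uninjured absorptive cells, these 2 types were not tested against each other.

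AltEnteroPC, a type present in both anti-GFP and uninjured mice, was the type in which both Car4 and Car1 rose after DSS. Its Car4 was 1.22, 1.82 and 1.12 in anti-GFP mice at 24 h and 2.68, 0.97 and 1.30 at 48 h, against 0.48 and 0.12 at 24 h and 0.070 at 48 h in the 3 uninjured mice with at least 20 such cells. The groups did not overlap, and Car4 rose by 3.33 ± 0.56 on the log2 scale (limma adjusted p = 0.000920). The low uninjured levels rested on 56, 20 and 22 cells, so the size of the rise is uncertain. With 1 mouse left out it ranged from 2.49 to 3.80. Car1 was 52.8, 33.8 and 56.4 at 24 h and 41.7, 50.8 and 25.7 at 48 h in anti-GFP mice, against 13.3, 14.1 and 18.6 in uninjured mice, a rise of 1.39 ± 0.31 (limma adjusted p = 0.00484). Car2 was not called there (log2 change -0.57 ± 0.22, limma adjusted p = 0.0817). It passed with the minimum lowered to 10 cells (-0.64, limma adjusted p = 0.0260) and without uninjured replicate 1 of 24 h (-0.73, limma adjusted p = 0.0230), and over the fits without 1 mouse its adjusted p reached 0.400.

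The called share in AltEnteroPC was 18.7% of 10524 genes, and the median change of all genes was 0.16. Median depth of these cells was 17497 UMIs at 24 h and 24804 at 48 h in anti-GFP mice, against 7494 and 11675 in uninjured mice. After thinning to 4000 UMIs the share of AltEnteroPC cells with a Car4 UMI was 19.6% and 20.9% in anti-GFP mice, against 3.72% and 2.24% in the 1 uninjured mouse at each time with enough cells left. The part of depth in the fitted changes was not tested.

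In the crypt types, Car2 fell after DSS. In StemCell it was 3.74 at 24 h and 3.90 at 48 h in the 2 anti-GFP mice with at least 20 cells, against 9.54, 9.93, 6.68 and 8.68 in uninjured mice. The groups did not overlap, with a log2 change of -1.17 ± 0.21 (limma adjusted p = 0.00245; 1.93% of 10706 genes called). With 1 anti-GFP mouse at each time, the fit takes the spread of that group from the other groups. Without the anti-GFP mouse of 48 h the change was -1.20 but missed the threshold (limma adjusted p = 0.0614), and without that of 24 h it was -1.14 (limma adjusted p = 0.0448). In TA2, a transit-amplifying type, Car2 was 3.10 at 24 h and 5.43, 2.69 and 5.29 at 48 h in anti-GFP mice, against 7.69, 6.44, 6.80 and 7.25 in uninjured mice. It fell there by 0.95 ± 0.21 (limma adjusted p = 0.0131; 4.78% of 10673 genes called). Without uninjured replicate 1 of 24 h the adjusted p was 0.0527, and without uninjured replicate 1 of 48 h 0.0540. In AltEnterocyte2 and BasalGoblet 0 members were called after DSS, where 0.111% of 9866 and 0.350% of 10866 genes were. The AltEnterocyte2 fit set 3 anti-GFP mice of 24 h against 2 uninjured mice of 48 h, so injury and time cannot be told apart there. The thinned shares of fibroblasts with a Car2 UMI were 8.85% and 5.97% in anti-GFP mice, against 17.6% and 13.9% in uninjured mice, and their part in these changes was not tested. Over these 5 types 4 of 15 tests of a member passed.

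**Figure D3:**
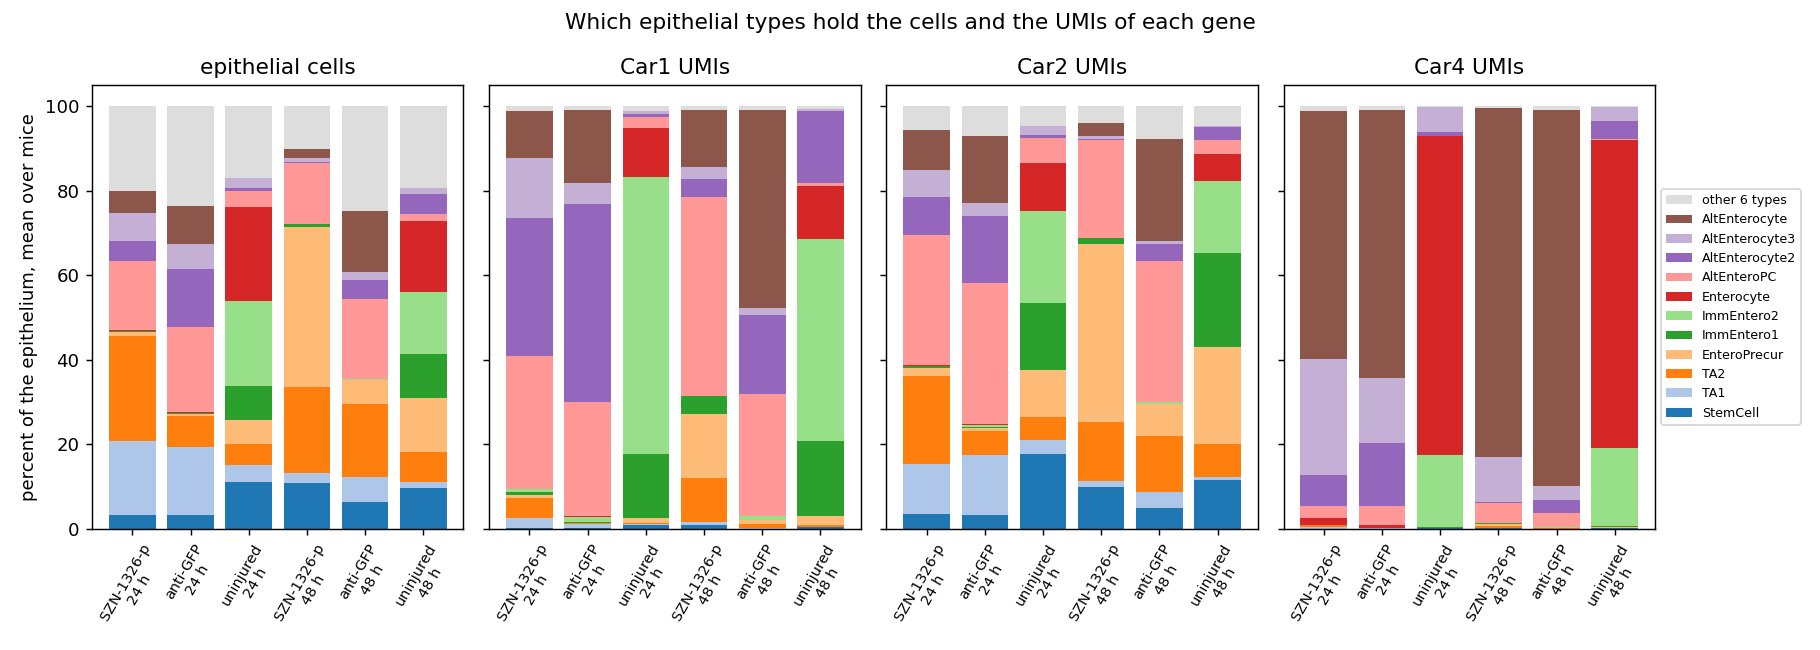
Percent of epithelial cells (left) and of the UMIs of Car1, Car2 and Car4 (right panels) held by each epithelial type, as means over the mice of a group, in stacked bars for SZN-1326-p, anti-GFP and uninjured mice at 24 h and 48 h. AltEnterocyte (brown) supplies 63.3% and 88.8% of Car4 UMIs in anti-GFP mice and 0% in uninjured mice, and EnteroPrecur (light orange) supplies 42.2% of Car2 UMIs in SZN-1326-p mice at 48 h.

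At 24 h after SZN-1326-p, 0 of the 3 members were called in the epithelium, where 10.1% of genes were. Car1 was 10.8, 33.4 and 19.7 in SZN-1326-p mice, against 41.9, 24.6 and 42.7 in anti-GFP mice (log2 change -0.88 ± 0.44, limma adjusted p = 0.209). Car4 was 3.05, 4.64 and 2.75, against 4.02, 9.37 and 5.01 (-0.76 ± 0.37, limma adjusted p = 0.195). Car2 was 4.35, 4.88 and 5.88, against 3.31, 4.50 and 4.03 (0.35 ± 0.22, limma adjusted p = 0.308). For each gene the groups overlapped between mice. Their limma unadjusted p values were 0.0614, 0.0541 and 0.121. For Car4, a weighted fit of recovered UMI sums (voom) gave -1.51 with an adjusted p of 0.0236.

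At 48 h Car4 and Car1 fell in SZN-1326-p mice, while Car2 was higher in each of them than in any anti-GFP mouse. Car4 was 0.83, 0.99 and 0.93 in SZN-1326-p mice, against 17.2, 5.39 and 7.39 in anti-GFP mice, with group means of 0.92 ± 0.08 and 10.0 ± 6.33 (SD, n = 3 each). It fell by 3.26 ± 0.37 on the log2 scale (limma adjusted p = 4.48e-05), and no mouse overlapped. Car1 was 6.25, 8.66 and 5.74, against 41.5, 29.7 and 14.1, again without overlap, and fell by 1.93 ± 0.44 (limma adjusted p = 0.00830). Car2 was 8.79, 8.37 and 8.15, against 6.75, 4.46 and 5.32, a log2 change of 0.63 ± 0.22 that was not called (limma adjusted p = 0.0627). The thinned share of fibroblasts with a Car2 UMI was also higher, at 16.4% in SZN-1326-p mice, against 5.97% in anti-GFP mice, and its part was not tested. Of all genes 12.5% were called, and the median change was -0.11.

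In an alternative the 2 SZN-1326-p mice of high epithelial share were left out, picked by a median mitochondrial share above 15% over all cells. The Car4 call held without these mice (-3.27, limma adjusted p = 0.000482), as did that of Car1 (-1.81, adjusted p = 0.0304). Anti-GFP replicate 1 of 48 h, the highest mouse of that group for both genes, also stood apart in immune marker RNA within epithelial cells (Ptprc, Cd52, Lyz2, Cd3e, Cd79a; 5 of 5 found), at a summed level of 1.87, against at most 0.46 in the other 15 libraries, and had the lowest epithelial mitochondrial share, 26.1%. Without that mouse Car4 fell by 2.78 (limma adjusted p = 0.000229), and Car1 missed the threshold (-1.59, limma adjusted p = 0.0560). Without cells of mixed lineage Car4 fell by 3.29 (limma adjusted p = 3.40e-05) and Car1 by 1.98 (adjusted p = 0.00592). The averaged deposited log2 values gave -0.82 for Car1 (limma adjusted p = 0.0890).

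The change between the times was itself tested. For Car4 the SZN-1326-p effect at 48 h minus that at 24 h was -2.50 ± 0.52 on the log2 scale (limma adjusted p = 0.0643), and the differences for Car1 (-1.05 ± 0.62, limma adjusted p = 0.655) and Car2 (0.28 ± 0.30, adjusted p = 0.862) were also not called. In that comparison 0.139% of genes were called. The unadjusted limma p values were 0.000156 for Car4, 0.108 for Car1 and 0.365 for Car2.

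The makeup of the epithelium differed beside these changes. AltEnterocyte made up 2.16% of epithelial cells in SZN-1326-p mice at 48 h (44 cells), against 14.4% in anti-GFP mice (106 cells), and still supplied 82.5% of Car4 UMIs, against 88.8%. AltEnterocyte2, where Car1 was highest per cell, held 0.20% (3 cells), against 4.35% (34 cells). EnteroPrecur, a type with high Car2 and little Car4, held 37.7% (814 cells), against 5.69% (39 cells), and supplied 42.2% of Car2 UMIs, against 7.56%. Its Car2 was 10.1, 9.14 and 9.08 in the 3 SZN-1326-p mice at 48 h, against 15.0 in 1 uninjured mouse at 24 h and 11.3 and 12.6 in 2 at 48 h, with no anti-GFP mouse reaching 20 such cells. The summed level of the 8 colonocyte markers was 17.8 to 20.8 by mouse in SZN-1326-p epithelium at 48 h, against 51.0 to 86.9 in anti-GFP epithelium. Guca2a alone made up much of this unweighted sum, with means of 5.07 in SZN-1326-p mice and 33.7 in anti-GFP mice. With equal fixed weights for 5 types (AltEnteroPC, AltEnterocyte, BasalGoblet, StemCell, TA2) Car4 changed by -0.76 (limma adjusted p = 0.0333) and Car1 by -0.88 (adjusted p = 0.00440). That Car4 value is mostly the level of AltEnterocyte, 32.5 to 71.0 by mouse, against 0.10 to 2.68 in AltEnteroPC, and it rests on 10, 11 and 23 AltEnterocyte cells in SZN-1326-p mice. The part of the cell makeup in the epithelial changes cannot be told from it.

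Levels within types at 48 h rested on few cells. In AltEnterocyte of SZN-1326-p mice, with 10, 11 and 23 cells, Car4 was 32.5, 39.8 and 32.5, against 71.0, 43.1 and 63.8 in anti-GFP mice with 52, 34 and 20 cells. The groups did not overlap, yet Car4 was not called with the minimum lowered to 10 cells (log2 change -0.74, limma adjusted p = 0.168; 0.556% of 10067 genes called). Car1 in those cells was 51.1, 37.8 and 39.8, against 103, 85.2 and 75.3, and was called at that minimum (-1.03, limma adjusted p = 0.0348). Car2 was 14.9, 9.12 and 12.2, against 10.7, 7.47 and 9.76 (0.36, limma adjusted p = 0.543).

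With the minimum of 20 cells, 7 fits within types compared SZN-1326-p with anti-GFP. In these 0 of 21 tests of a member were called, 6 of them with an unadjusted limma p under 0.05. Over all genes such a p occurred in AltEnteroPC for 1105 of 10524 at 24 h and 874 of 10524 at 48 h. It occurred for 893 of 9852 in AltEnterocyte and 724 of 9866 in AltEnterocyte2 at 24 h, and for 1122 of 10673 in TA2 at 48 h. In AltEnteroPC at 48 h Car4 was 0.36, 0.10 and 0.45 in SZN-1326-p mice, against 2.68, 0.97 and 1.30 in anti-GFP mice, with no overlap, a log2 change of -2.48 ± 0.62 and a limma adjusted p of 0.150 where 0.200% of genes were called. Car1 in the same cells was 21.3, 23.3 and 22.3, against 41.7, 50.8 and 25.7 (-0.77 ± 0.35, limma adjusted p = 0.566). After thinning, 5.34% of those SZN-1326-p cells had a Car4 UMI, against 20.9% of anti-GFP cells.

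TA2 at 48 h had Car1 at 2.41, 5.38 and 2.63 in SZN-1326-p mice, against 1.79, 1.31 and 1.39 in anti-GFP mice, higher in each (log2 change 1.12 ± 0.32, limma adjusted p = 0.252, with 0.0281% of genes called). This direction was opposite to that of the whole epithelium, and its thinned shares of cells with a Car1 UMI were 39.5% in SZN-1326-p mice, against 21.0% in anti-GFP mice. Fibroblasts of the same groups had 9.25% and 8.56%.

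At 24 h AltEnterocyte2 had Car2 at 8.65, 8.85 and 10.2 in SZN-1326-p mice, against 3.48, 4.34 and 5.73 in anti-GFP mice, without overlap (log2 change 1.05 ± 0.28, limma adjusted p = 0.408, with 0.0203% of genes called). In AltEnterocyte at 24 h Car1 was 25.2, 48.0 and 48.9 in SZN-1326-p mice, against 54.5, 55.0 and 82.5 in anti-GFP mice (-0.69 ± 0.24, limma adjusted p = 0.291, with 0.173% of genes called). Car4 in the same cells differed by -0.21 ± 0.25 (limma adjusted p = 0.851). AltEnteroPC at 24 h had 0.0190% of genes called. BasalGoblet and TA1 at 24 h had 0% called, with 585 of 10866 and 314 of 10296 genes at an unadjusted limma p under 0.05.

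By cells, the thinned share of epithelial cells with a Car4 UMI was 12.4% ± 2.48 in SZN-1326-p mice at 24 h and 3.21% ± 0.60 at 48 h (SD, n = 3 each), 26.0% ± 6.14 and 22.9% ± 9.13 in anti-GFP mice (n = 3 each), and 36.3% ± 2.86 and 30.4% ± 3.96 in uninjured mice (n = 2 each). For Car2 it was 68.9% ± 1.96 and 85.4% ± 0.63 in SZN-1326-p mice, 58.5% ± 3.69 and 67.4% ± 7.05 in anti-GFP mice, and 67.8% ± 2.85 and 66.5% ± 1.01 in uninjured mice. For Car1 it was 52.7% ± 5.34 and 39.2% ± 5.36 in SZN-1326-p mice, 59.0% ± 5.11 and 47.8% ± 7.51 in anti-GFP mice, and 61.0% ± 7.95 and 59.6% ± 3.46 in uninjured mice. Cells with a UMI of all 3 genes made up 8.40% and 2.33% of epithelial cells in SZN-1326-p mice, 15.5% and 15.3% in anti-GFP mice and 16.9% and 14.1% in uninjured mice. Without thinning the Car4 shares were 21.1% and 5.80% in SZN-1326-p mice, 36.0% and 29.7% in anti-GFP mice, and 44.9% and 38.7% in uninjured mice.

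Of 13 other carbonic anhydrases listed, 9 were in the table and 4 passed the filter on low levels. After DSS 3 rose and 1 fell, where 23.3% of all genes were called, with a median log2 change of 0.73, against 0.00 for all genes. Car8, a relative without catalytic activity, rose by 1.57 ± 0.31 (limma adjusted p = 0.00234), averaging 0.50 ± 0.22 in anti-GFP mice (n = 6) and 0.16 ± 0.08 in uninjured mice (n = 4). Car12, a membrane enzyme with its active site outside the cell, rose by 0.95 ± 0.15 (limma adjusted p = 0.000326), and Car9, a membrane enzyme induced by hypoxia, by 0.51 ± 0.16 (adjusted p = 0.0329). Car13, a cytosolic enzyme, fell by 0.76 ± 0.16 (limma adjusted p = 0.00307). At 48 h after SZN-1326-p, Car8 fell by 1.83 ± 0.39 (limma adjusted p = 0.00617) and 0 rose, where 12.5% of all genes were called, with a median of -0.29, against -0.11 for all genes. At 24 h (10.1% of all genes called) and in the comparison between times (0.139% called) 0 of 4 were called. At an unadjusted limma p under 0.05 were 1 and 0 of them, against 2894 and 990 of all 10795 genes.

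A list of acid-base and ion transport genes, with water channels and guanylin, had 22 of 24 in the table and 21 tested. It was chosen with earlier results of these data known, so its counts are a description. At 48 h 8 fell and 2 rose in SZN-1326-p mice. Of all 10795 genes 12.5% were called, and their calls too were mostly falls, 1085 lower and 260 higher. Slc9a3, the apical sodium-proton exchanger, fell by 2.71 ± 0.29 (limma adjusted p = 3.36e-05), Guca2a, which encodes guanylin, by 2.68 ± 0.32 (adjusted p = 6.29e-05), Aqp8, a water channel, by 1.96 ± 0.53 (adjusted p = 0.0292) and Slc26a3, the apical chloride-bicarbonate exchanger, by 1.59 ± 0.31 (adjusted p = 0.00257). Cftr, the chloride and bicarbonate channel of crypt cells, rose by 1.10 ± 0.23 (limma adjusted p = 0.00419), and Kcnn4, a potassium channel, by 0.63 ± 0.20 (adjusted p = 0.0487). The median over the 21 was -0.38, against -0.11 for all genes. At 24 h 6 fell and 0 rose, where 10.1% of all genes were called (459 lower, 636 higher), with a median of -0.35, against -0.06 for all genes, and Slc26a3 fell by 1.14 ± 0.31 (limma adjusted p = 0.0277).

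After DSS 6 of the 21 fell and 2 rose, where 23.3% of all genes were called (1348 lower, 1162 higher), with a median of -0.17, against 0.00 for all genes. Slc26a3 fell by 1.47 ± 0.24 (limma adjusted p = 0.000444), averaging 3.39 ± 1.16 in anti-GFP mice and 9.15 ± 2.04 in uninjured mice, and Aqp8 fell by 1.95 ± 0.42 (adjusted p = 0.00613), whereas Slc9a3 was not called (-0.22 ± 0.23, adjusted p = 0.522). Slc12a2, the basolateral chloride importer of secreting cells, rose by 0.57 ± 0.16 (limma adjusted p = 0.0179). The other riser was Scnn1b, by 1.31 ± 0.32 (limma adjusted p = 0.00864), at low means of 0.059 in anti-GFP mice and 0.019 in uninjured mice. Scnn1a fell by 1.39 ± 0.18 (limma adjusted p = 5.68e-05). Between the times 0 of 21 were called, where 0.139% of all genes were. Of the 21, 5 had an unadjusted limma p under 0.05, against 990 of all 10795 genes. The summed colonocyte markers, which include Aqp8, Slc26a3 and Guca2a, were 61.7 to 97.1 by mouse in anti-GFP mice at 24 h and 51.0 to 86.9 at 48 h, against 157 to 225 and 139 to 168 in uninjured mice, and 31.3 to 35.9 in SZN-1326-p mice at 24 h. Of these markers Guca2a alone averaged 33.2 in anti-GFP mice and 102 in uninjured mice. The part of the summed markers in the changes of single genes was not tested.

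**Figure D4:**
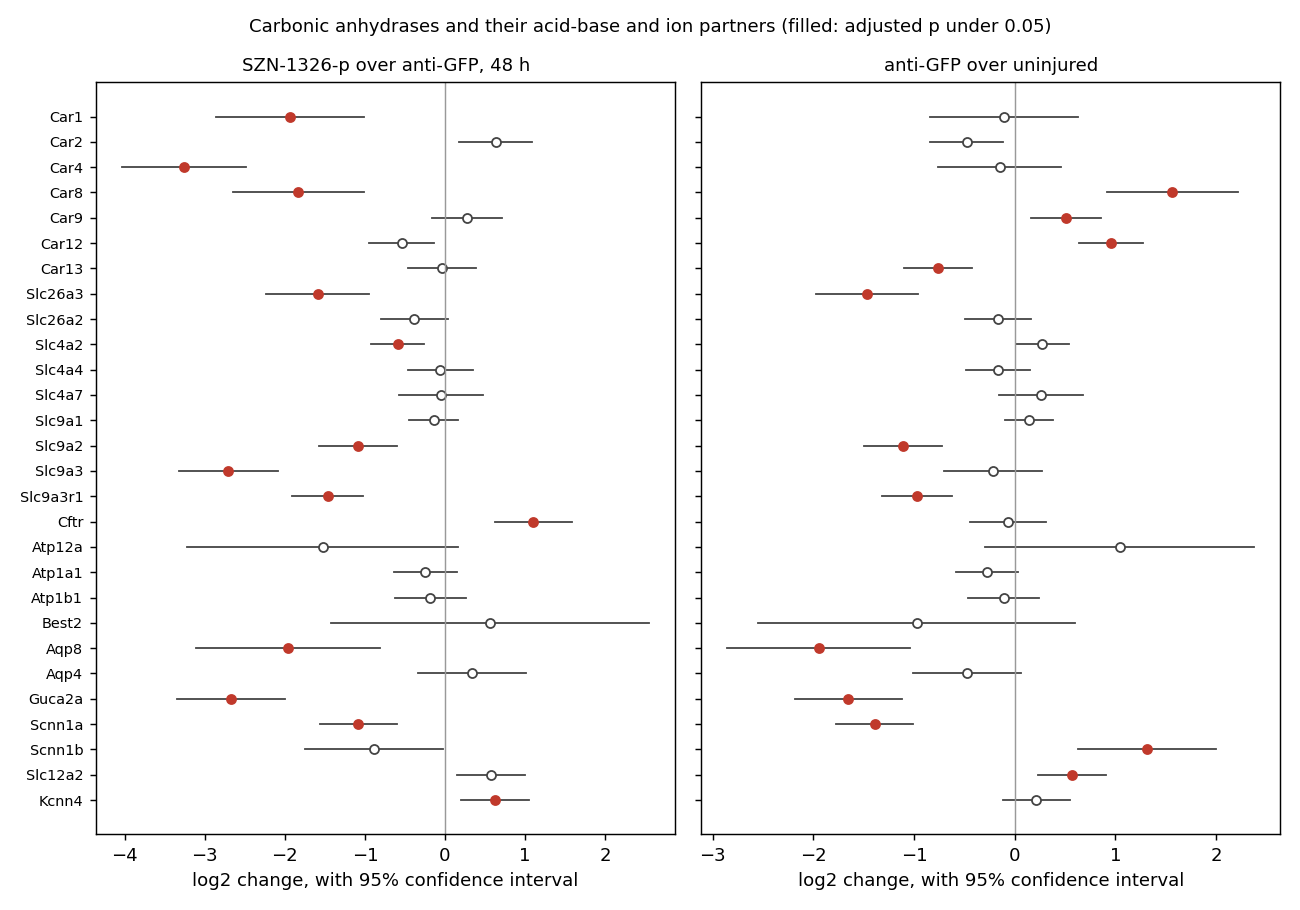
Log2 change of the 3 members, 4 other carbonic anhydrases and 21 acid-base and ion transport genes in epithelial cells (x axis, with 95% confidence interval), for SZN-1326-p over anti-GFP at 48 h (left) and anti-GFP over uninjured (right), filled where the adjusted p is under 0.05. At 48 h Car4 (-3.26), Slc9a3 (-2.71) and Guca2a (-2.68) lie farthest to the left, and after DSS Car4 (-0.15) and Slc9a3 (-0.22) are open while Slc26a3 (-1.47) is filled.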

How the data were processed

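The deposited values are log2 of UMIs divided by a per-cell size factor, plus 1. The log2 scale was read from the values, since how the authors set size factors, filtered cells or treated doublets is not given in the sources used here. Cell Ranger 3.0.2 and the mm10 build are named in the submitters' processing notes. Cell types are the authors' deposited annotation. Values were un-logged, and all 60867816 entries above 0 came back as whole UMIs (tolerance 1e-06), which served thinning and the voom alternative. No doublet caller was run; cells holding markers of another lineage were left out in an alternative. No sample column was left unmapped.

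Levels were averaged over the cells of a mouse, and log2(level + 0.01) was fitted with limma 3.58.1 (R 4.3.3; trend and robust), over 6 groups of all 16 mice with 10 residual degrees of freedom, for genes at 0.05 or more in at least 2 mice. A fold change on this scale understates the change of low genes. Within types, mice with at least 20 cells entered, with 2 or more on each side; where leaving out a mouse left 1, it was assumed to vary like the other groups. The DSS contrast averages both times. Within types, where anti-GFP or uninjured mice were missing at a time, also after a mouse was left out, the arms were compared with the times pooled. All SZN-1326-p contrasts share the anti-GFP mice with the DSS contrast. The epithelial fit was also run on simulated levels, for the 48 h contrast only. Named genes are the 3 members, the listed carbonic anhydrases and transport genes, and the 5 most alike profiles of each. The members and lists were chosen with earlier results of these data known. Shares of cells are means over mice. Same-numbered mice at a time did not vary together in every pair, and no label pairs them, so the main fits did not use the numbers.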

Additional observations from a re-analysis of the deposited data

Results flagged for a closer look

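Of 9 sets of mice (3 genes by 3 arms, both times together) 2 held a mouse whose distance from its nearest neighbour exceeded Dixon's 95% limit for its number of mice, a limit that chance passes in about 1 set in 20. In uninjured epithelium Car1 was 16.7 in replicate 1 of 24 h, against 40.5 to 41.0 in the other 3 uninjured mice (gap over range 0.98). That library is 1 of the 4 with the longer-transcript balance and has the lowest median depth of epithelial cells, 7134 UMIs, and the part of either was not tested. Car4 was 5.69 in uninjured replicate 2 of 48 h, against 8.62 to 8.93 in the other 3 (gap over range 0.91).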

How the results depend on the processing

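Car4 at 48 h after SZN-1326-p was called under every alternative run (leaving out 1 mouse, -3.61 to -2.78). Car1 at 48 h was called under all but the mean of deposited log2 values (-0.82) and the fit without anti-GFP 48 h replicate 1 (1 mouse left out, -2.37 to -1.59). Car2 at 48 h passed in the compared groups alone (0.63, adjusted p = 0.0202), with median-of-ratios scaling (0.74), with mean log2 values (0.73) and with the library term (0.63, adjusted p = 0.00946), and gave 0.49 to 0.79 with 1 mouse left out. Car2 after DSS passed with median-of-ratios scaling (-0.50), without cells of mixed lineage (-0.50) and with the library term (-0.45), and gave -0.61 to -0.34 with 1 mouse left out, passing in 4 of 10 such fits. After DSS Car1 reversed with voom (0.091) and with equal weights of 2 types, AltEnteroPC and BasalGoblet (1.25, adjusted p = 0.00127), and ranged from -0.43 to 0.21 with 1 mouse left out. Car4 reversed likewise (voom 0.17, equal weights 1.77) and ranged from -0.39 to 0.031. At 24 h Car4 passed with voom (-1.51); with 1 mouse left out Car4 ranged from -1.01 to -0.40 and Car1 from -1.28 to -0.46, with no call. The difference between times for Car4 ranged from -2.86 to -2.02 with 1 mouse left out, passing without anti-GFP 48 h replicate 2 (adjusted p = 0.0330). Car4 in AltEnterocyte at 24 h ranged from -0.46 to 0.027, reversing without SZN-1326-p replicate 1. The cause of these moves was not tested.

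Counts of called genes after DSS (2510) were 3774 with voom, 776 with equal weights, and 1028 to 2980 with 1 mouse left out. At 24 h (1095) they were 0 in the compared groups alone, 2145 with voom, 1 with equal weights, 360 without the 2 SZN-1326-p mice of high epithelial share, 1694 with the library term, and 275 to 1880 with 1 mouse left out. At 48 h (1345) they were 118 with equal weights, 812 without the 2 SZN-1326-p mice of high epithelial share, 2556 with the library term, and 590 to 1147 with 1 mouse left out. Between times (15) they were 1 with no filter, 6 in the compared groups alone, 6 with a pseudocount of 0.1, 5 with median-of-ratios scaling, 0 with voom, 25 with mean log2 values, 3 with equal weights, 0 without the 2 SZN-1326-p mice of high epithelial share, 60 with the library term, and 0 to 21 with 1 mouse left out.

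The replicate block gave 2640, 1306, 1546 and 17 called genes in the 4 comparisons (DSS, 24 h, 48 h, between times) and changed no call of a member. Deviations of same-numbered SZN-1326-p and anti-GFP mice correlated at 0.39, -0.30 and 0.44 at 24 h and 0.13, 0.07 and 0.32 at 48 h. Those of differently numbered mice ranged from -0.62 to 0.41 at 24 h and from -0.25 to 0.08 at 48 h. Whether the shared numbers pair the mice cannot be told from these few values. The library term was added after the data were seen. Of the 5 profiles most like each gene, Spearman correlation shared 2 for Car1, 3 for Car2 and 0 for Car4. Within types, mice with under 20 cells limit what could be tested, and depth limits the low Car1 and Car4 levels of crypt types.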
